A study of Mus musculus with 5 samples.

Results

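Mouse mammary carcinoma 6DT1 cells that had been transduced with a lentiviral shRNA and selected with puromycin, but that kept a normal *Arid4b* level, were compared with 6DT1 cells that had been neither transduced nor selected. The selected lines were hairpin 5 (H5) and the pLKO.1 scrambled control, and members of the comparison were genes in which both lines lay on the same side of the untransduced cells by 0.5 or more on the log2 scale, which is 1.41-fold. Of 19938 genes measured, 139 (0.697%) were higher in both selected lines and 67 (0.336%) were lower in both, which gave 206 members.

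Each line was measured once, on 1 Affymetrix Mouse Gene 1.0 ST array, and the values are log2 expression after RMA normalization. All 5 samples of the series were 6DT1 cells, a highly metastatic line, grown in the same medium. H5 carried an shRNA against *Arid4b* that did not lower its protein (densitometry 1.02, beside 1.00 for the scrambled control and 1.09 for untransduced cells), and the scrambled control carried a hairpin with no intended target in the same vector. Both lines were selected with 10 ug/ml puromycin and RNA came from pooled clones. The H3 and H4 lines, with *Arid4b* densitometry of 0.19 and 0.15, were transduced and selected in the same way, and their values are given beside those of the control lines. Untransduced cells differed from the selected lines in vector, hairpin, puromycin and pooling of clones at once and were represented by 1 array, so that these and the array itself cannot be told apart. No line had a second array, and p-values measure only the spread between lines.

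The pLKO.1 vector integrates into the genome and expresses a short hairpin RNA together with a puromycin resistance gene. Puromycin resembles the end of an aminoacyl-tRNA and terminates growing peptide chains, so that cells without the resistance gene die. Foreign nucleic acid can be sensed in the cytosol or endosome and lead to interferon production, and interferon then activates transcription factors, STAT2 and IRF9 among them, that bind the interferon-stimulated response element (ISRE) in front of antiviral genes. Assembly of ribosomes in the nucleolus, in contrast, follows growth and nutrient signals and is driven in part by MYC.

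*Arid4b* itself measured 8.24 in H5 and 8.34 in the scrambled control, against 8.36 in untransduced cells, with a gap of 0.10 between the selected lines and a mean difference from untransduced cells of -0.06 ± 0.23, limma SE (limma unadjusted p = 0.797). In the knockdown lines it measured 6.88 in H3 and 7.35 in H4, below all 3 control arrays. The epithelial keratins *Krt8* (12.09 to 12.26) and *Krt18* (11.63 to 11.71) were high on the 3 arrays, whereas *Epcam* was 5.61 on each and *Cdh1* was 6.05 to 6.09, below the array median of 6.24 to 6.25. Of 5 epithelial, 5 leukocyte, 5 fibroblast, 4 endothelial and 5 adipocyte and muscle markers, 0 differed by 0.5 or more in both selected lines. Among all genes 0.697% were higher and 0.336% lower, so that a 0 among so few markers says little about them. The leukocyte markers *Ptprc*, *Cd53*, *Laptm5*, *Tyrobp* and *Csf1r* ranged from 4.64 to 5.89, with a summed level of 26.6 in H5 and in untransduced cells and of 26.5 in the scrambled control.

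The scrambled control lay further from untransduced cells than H5 did. The SD of the difference over all genes was 0.154 for H5 and 0.205 for the scrambled control, beside 0.130 between H5 and the scrambled control. At the same 0.5 limit, H5 alone was higher in 163 genes and lower in 99, the scrambled control was higher in 316 and lower in 385, and 130 genes differed between both selected lines. No gene lay 0.5 or more above untransduced cells in one selected line and 0.5 or more below in the other. At any size of difference, both lines were on the higher side in 6689 genes (33.5%) and on the lower side in 6335 (31.8%). Both differences are taken from the same untransduced value, so that an unusual value on that array places both lines on the same side.

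**Figure D1:**
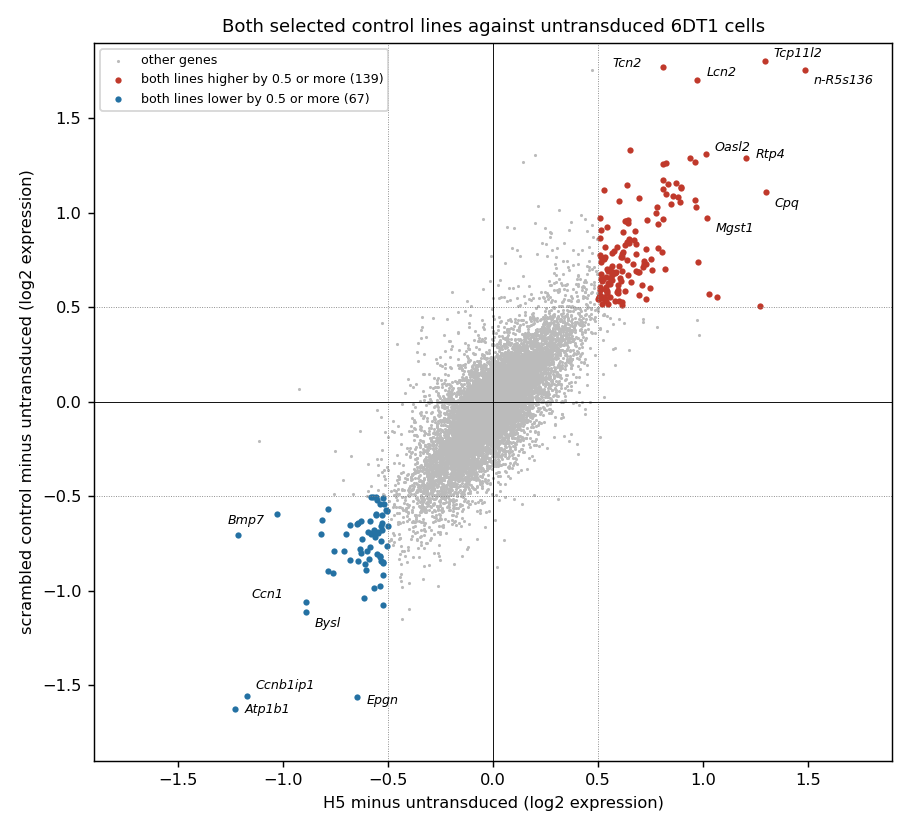
Difference of each selected control line from untransduced 6DT1 cells in log2 expression, with H5 on the horizontal and the scrambled control on the vertical axis and 1 point per gene. Red points are the 139 genes higher and blue points the 67 genes lower in both lines by 0.5 or more (dotted lines), and the corners in which the lines would oppose each other by 0.5 hold no gene.

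A limma model of the 5 arrays in 3 groups gave an unadjusted p under 0.05, which is the study's own threshold, for 1130 genes (5.67%), of which 542 (2.72%) were higher and 588 (2.95%) lower in the selected control lines. With Benjamini-Hochberg adjustment 0 genes (0%) passed, and the smallest adjusted p was 0.861. With 2 arrays against 1, an exact permutation test cannot give a p below 0.333. Of the members, 91 of the 139 higher and 49 of the 67 lower genes passed the unadjusted threshold, but the limit and the model use the same arrays and this count is a description. Levels are given below in log2 units, as are differences from untransduced cells, and 2 differences of a gene stand in the order H5 and scrambled control.

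Interferon-stimulated genes had the largest share of higher members among the 44 gene lists described. Of 53 measured, 15 (28.3%) were higher in both selected lines by 0.5 or more, beside 0.697% of all genes, and 0 were lower. At any size, 46 lay above untransduced cells in both lines and 2 below, and the median difference of the list was 0.30 in H5 and 0.41 in the scrambled control, beside 0.00 for all genes. By the unadjusted limma threshold, 10 of the 53 passed as higher and 1 as lower, beside 2.72% and 2.95% of all genes. Of the 15 genes past the limit, *Irf9*, *Dhx58*, *Oasl2*, *Parp14* and *Sp100* passed this threshold and the others did not. Among all higher members 91 of 139 passed it. The limma SE includes the gap between the knockdown lines H3 and H4 as well as that between H5 and the scrambled control. For *Rtp4* the SE was 0.71, with 6.10 in H3 and 7.61 in H4, beside a gap of 0.09 between the selected control lines. A gene short of this threshold thus need not differ between H5 and the scrambled control. The interferon-stimulated list had a median of 0.14 in H3 and 0.38 in H4 against the same untransduced array.

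Among the transcription factors of the response, *Irf9*, the DNA-binding subunit of the STAT complex, measured 8.52 in H5 and 8.72 in the scrambled control, against 7.67 in untransduced cells (differences 0.85 and 1.05; limma unadjusted p = 0.0452). *Irf7*, which switches on interferon genes, measured 7.39 in H5 and 7.89 in the scrambled control, against 6.75 in untransduced cells (differences 0.64 and 1.14; limma unadjusted p = 0.186). *Stat2* measured 8.04 in H5 and 8.17 in the scrambled control, against 7.63 in untransduced cells, and only the scrambled control passed the limit. For these 3 factors the scrambled control was the higher of the selected lines, and both lay above the untransduced array.

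The RIG-I-like receptors, which sense viral RNA in the cytosol, were on the same side. *Dhx58* (LGP2), a regulator of the other receptors of this family, measured 8.07 in H5 and 8.44 in the scrambled control, against 7.26 in untransduced cells (differences 0.81 and 1.18; limma unadjusted p = 0.0459). *Ifih1* (MDA5) measured 7.36 in H5 and 7.47 in the scrambled control, against 6.89 in untransduced cells. *Ddx58* (RIG-I) measured 10.21 in H5 and 10.43 in the scrambled control, against 9.86 in untransduced cells. In both of these receptors H5 was short of the limit and the scrambled control past it.

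Several antiviral effectors were higher by more. *Oasl2*, a relative of the oligoadenylate synthetases, measured 8.85 in H5 and 9.15 in the scrambled control, against 7.84 in untransduced cells, with differences of 1.01 and 1.31 (limma unadjusted p = 0.0495). *Oas3*, which makes the 2′-5′ oligoadenylates that activate RNase L, measured 8.14 in H5 and 8.37 in the scrambled control, against 7.55 in untransduced cells. Its relatives were closer, with *Oas1a* at 7.30 in H5 and 7.64 in the scrambled control, against 6.99 in untransduced cells. *Oas2* measured 6.06 in H5 and 6.16 in the scrambled control, against 6.02 in untransduced cells, all below the array median of 6.24 to 6.25. Within this family the untransduced array was thus the lowest of the 3 for each of these 4 genes, but the distance ranged widely. *Rtp4*, an interferon-induced chaperone of membrane receptors, measured 7.28 in H5 and 7.36 in the scrambled control, against 6.07 in untransduced cells. This gave the third largest smaller difference of all genes (1.20 and 1.29; limma unadjusted p = 0.167). *Cmpk2*, a mitochondrial nucleotide kinase, measured 7.07 in H5 and 7.40 in the scrambled control, against 6.44 in untransduced cells. *Gbp3*, a guanylate-binding protein, had the same deposited value in both selected lines, 7.39, beside 6.70 in untransduced cells. Both selected lines were thus above the untransduced array in these genes, by more in the scrambled control or equally. The remaining members were the ADP-ribosyltransferase genes *Parp12* and *Parp14*, *Samd9l*, *Sp100*, which encodes a nuclear body protein, and *Ifi27*. Their smaller differences were 0.51 to 0.58, and *Ifi27* measured 10.51 in H5 and 10.73 in the scrambled control, against 9.94 in untransduced cells.

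Enzymes of the ubiquitin-like modifier ISG15 were represented by *Usp18*, the protease that removes ISG15, at 8.64 in H5 and 9.23 in the scrambled control, against 8.11 in untransduced cells, and by *Ube2l6*, the conjugating enzyme, at 7.59 in both selected lines and 7.07 in untransduced cells. *Uba7*, the activating enzyme, and *Herc6*, a ligase, lay on the same side by less than the limit, with differences of 0.26 in H5 and 0.21 in the scrambled control for *Uba7* and 0.42 in H5 and 0.41 in the scrambled control for *Herc6*.

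Other members of the list differed little. *Mx1*, *Mx2*, *Zbp1* and *Cxcl10* lay below the array median of 6.24 to 6.25 on all 3 arrays. Whether they were detected was not tested. *Mx1* (4.84 in H5 and 4.76 in the scrambled control, against 4.75 in untransduced cells) and *Mx2* (4.64 in H5 and 4.90 in the scrambled control, against 4.76 in untransduced cells), GTPases that block virus particles, were within 0.14 of untransduced cells. *Zbp1* was 6.06 on all 3 arrays, and *Eif2ak2* (PKR), the kinase that halts translation on double-stranded RNA, measured 8.28 in H5 and 8.52 in the scrambled control, against 8.37 in untransduced cells. *Cxcl10*, a chemokine induced by interferon gamma, was the 1 gene of the list that passed the unadjusted limma threshold in the lower direction, at 5.70 in H5 and 5.56 in the scrambled control, against 6.00 in untransduced cells (limma unadjusted p = 0.0155).

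The knockdown lines differed from each other in these 15 genes. In H4 all 15 lay above untransduced cells, by 0.26 to 1.54. In H3, *Cmpk2*, *Samd9l* and *Parp12* lay below, by 0.17, 0.37 and 0.60, and *Rtp4* differed by 0.03 (6.10 in H3 and 7.61 in H4). *Irf9* measured 8.14 in H3 and 8.75 in H4 and *Oasl2* 8.46 in H3 and 9.22 in H4: in both genes H3 lay between untransduced cells and H5, and H4 lay above the scrambled control. All 4 of these sets of differences rest on the 1 untransduced array.

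**Figure D2:**
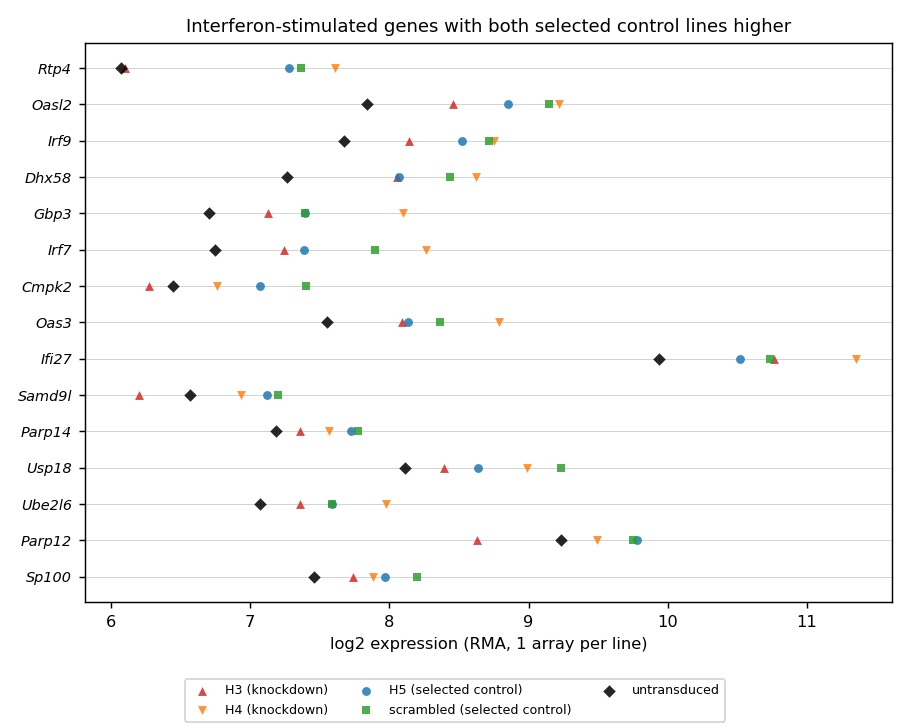
Log2 expression in each of the 5 lines, 1 array per line, of the 15 interferon-stimulated genes that were higher in both selected control lines by 0.5 or more, ordered from the top by the smaller difference. The untransduced array (black) is the lowest of the 3 control arrays for every gene, and H3 (red) falls below it for Cmpk2, Samd9l and Parp12.

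The sequence in front of these genes was searched for the ISRE core, a pair of GAAA runs with any 2 bases between them (TTTC runs when read on the other strand), on both strands and in a window of 250 bases before to 50 bases after the RefSeq start. The core was in 3.89% of the promoters of all 15614 measured genes with an entry, in 42.9% of the interferon-stimulated list (18 of 42) and in 7.96% of the genes higher in both selected lines (9 of 113). Among the 10 higher interferon-stimulated genes with an entry it was in 2, *Gbp3* and *Oas3*. A match is a description of letters, not a binding site. Shown are the 250 bases before the start of the higher members of the antiviral lists that hold the core there, and of *Oasl2* and *Irf9*, the highest interferon-stimulated members with an entry, which do not hold it in this window. The sequences are from RefSeq on GRCm38.p6, on the strand of the gene and 5′ to 3′, with the core in capitals: chr3:142559794-142560043 (+) for *Gbp3*, chr1:174031756-174032005 (-) for *Ifi205*, chr5:120777660-120777909 (-) for *Oas3*, chr7:104465194-104465443 (-) for *Trim30a*, chr5:114896684-114896933 (+) for *Oasl2* and chr14:55603735-55603984 (+) for *Irf9*.
Gbp3: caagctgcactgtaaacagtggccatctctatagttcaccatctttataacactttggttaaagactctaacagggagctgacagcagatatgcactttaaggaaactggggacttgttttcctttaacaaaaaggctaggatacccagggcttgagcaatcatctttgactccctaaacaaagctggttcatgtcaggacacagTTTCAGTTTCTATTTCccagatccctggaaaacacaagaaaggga
Ifi205: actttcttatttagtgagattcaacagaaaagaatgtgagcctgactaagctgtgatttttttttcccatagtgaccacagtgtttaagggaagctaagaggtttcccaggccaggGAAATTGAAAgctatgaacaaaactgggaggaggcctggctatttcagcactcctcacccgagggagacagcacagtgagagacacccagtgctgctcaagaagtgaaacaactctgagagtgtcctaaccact
Oas3: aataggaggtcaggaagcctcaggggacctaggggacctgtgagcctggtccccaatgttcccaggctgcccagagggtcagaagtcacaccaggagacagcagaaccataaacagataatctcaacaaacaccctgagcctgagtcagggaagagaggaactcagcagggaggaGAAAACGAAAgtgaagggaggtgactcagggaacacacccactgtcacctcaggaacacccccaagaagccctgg
Trim30a: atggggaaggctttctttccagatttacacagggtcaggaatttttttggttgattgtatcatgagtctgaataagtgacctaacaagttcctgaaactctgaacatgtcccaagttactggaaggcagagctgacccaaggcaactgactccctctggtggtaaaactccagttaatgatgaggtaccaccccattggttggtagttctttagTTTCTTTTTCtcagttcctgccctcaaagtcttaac
Oasl2: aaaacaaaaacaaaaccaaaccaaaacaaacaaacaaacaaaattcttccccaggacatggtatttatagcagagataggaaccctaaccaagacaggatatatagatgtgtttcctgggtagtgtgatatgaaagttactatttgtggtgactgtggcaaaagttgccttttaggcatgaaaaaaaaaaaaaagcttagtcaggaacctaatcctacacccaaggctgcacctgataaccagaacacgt
Irf9: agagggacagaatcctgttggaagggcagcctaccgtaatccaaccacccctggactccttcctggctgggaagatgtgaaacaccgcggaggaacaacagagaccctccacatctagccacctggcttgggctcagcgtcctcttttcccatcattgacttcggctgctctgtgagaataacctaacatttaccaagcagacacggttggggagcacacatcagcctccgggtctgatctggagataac

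In *Gbp3* a pair of cores overlapped by 4 bases and began 45 and 39 bases before the start. The core began 134 bases before the start in *Ifi205*, 75 in *Oas3* and 36 in *Trim30a*. The values of *Gbp3* and *Oas3* are given above. *Ifi205*, a member of the family of interferon-induced DNA sensors, measured 6.94 in H5 and 7.15 in the scrambled control, against 6.31 in untransduced cells, with differences of 0.64 and 0.85 (limma unadjusted p = 0.0238), and *Trim30a*, a tripartite motif protein, measured 8.96 in H5 and 9.34 in the scrambled control, against 8.42 in untransduced cells, with differences of 0.54 and 0.93 (limma unadjusted p = 0.048). For both genes the scrambled control was the highest of the 3 arrays.

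Lists that bear on a vector or a hairpin more directly had 0 to 2 higher members each, beside 0.697% higher among all genes. Of 24 genes of nucleic acid sensing and its adaptors, 1 (*Ifi205*; 4.17%) was higher in both lines, 0 were lower, and the median difference was 0.02 in H5 and 0.04 in the scrambled control. The RIG-I-like receptors *Dhx58*, *Ifih1* and *Ddx58*, described above, were counted among the interferon-stimulated genes and not in this list. *Tlr3*, the endosomal receptor for double-stranded RNA, measured 7.57 in H5 and 7.58 in the scrambled control, against 7.23 in untransduced cells. *Cgas*, the cytosolic DNA sensor, measured 7.16 in H5 and 6.91 in the scrambled control, against 7.26 in untransduced cells, and was thus lower in both lines. Of 24 genes of retrovirus restriction and silencing, 2 (8.33%) were higher, *Trim30a* and *Serinc5*, a membrane protein that reduces the infectivity of retrovirus particles, which measured 7.44 in H5 and 7.48 in the scrambled control, against 6.73 in untransduced cells (differences 0.72 and 0.75; limma unadjusted p = 0.00779). The host factors of lentivirus entry and integration had 0 members of 13 on either side, and a median of -0.07 in H5 and -0.14 in the scrambled control. Of 17 genes of MHC class I antigen presentation, 0 passed the limit, and the medians were 0.08 and 0.10.

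In the small RNA machinery, which processes an expressed hairpin into a silencing complex, 1 of 19 genes was higher and 1 was lower (5.26% each, beside 0.697% higher and 0.336% lower among all genes). *Ago4*, an Argonaute protein, measured 6.89 in H5 and 6.99 in the scrambled control, against 6.21 in untransduced cells, with differences of 0.68 and 0.78 (limma unadjusted p = 0.00702). *Tarbp2*, the double-stranded RNA-binding partner of Dicer, measured 7.82 in H5 and 7.67 in the scrambled control, against 8.36 in untransduced cells, with differences of -0.55 and -0.70 (limma unadjusted p = 0.00474). Both selected lines were thus on the same side for each gene, and the knockdown lines lay there too, at 0.59 in H3 and 0.81 in H4 for *Ago4* and -0.84 in H3 and -0.77 in H4 for *Tarbp2* against the same untransduced array. A second probe set of *Tarbp2*, of lower signal, differed by -0.12 in H5 and -0.30 in the scrambled control, short of the limit. *Dicer1* (9.52 in H5 and 9.19 in the scrambled control, against 9.78 in untransduced cells) and *Dgcr8* (8.54 in H5 and 8.24 in the scrambled control, against 8.81 in untransduced cells), which cut hairpin precursors, were below untransduced cells in both lines, past the limit only in the scrambled control.

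Neither of the lists of drug efflux transporters and of puromycin-related peptidases had a gene past the limit in both lines. Among all genes 0.697% were higher and 0.336% lower. Of the 19 transporters, 8 lay above untransduced cells in both lines at any size and 4 below. *Abcc3*, an efflux transporter of conjugates, came closest, at 10.09 in H5 and 10.16 in the scrambled control, against 9.63 in untransduced cells, past the limit in the scrambled control and short of it in H5. *Abcb1a* (7.45 in H5 and 7.54 in the scrambled control, against 7.65 in untransduced cells) and *Abcb1b* (8.96 in H5 and 8.71 in the scrambled control, against 9.21 in untransduced cells), the P-glycoproteins, were not above untransduced cells in either selected line, and *Abcb1b* was past the limit on the lower side in the scrambled control. *Npepps*, the puromycin-sensitive aminopeptidase, measured 9.69 in H5 and 9.40 in the scrambled control, against 9.87 in untransduced cells, and none of the 13 measured peptidases of this list passed the limit in both lines. *Cndp2*, a dipeptidase, was past it on the lower side in the scrambled control, with differences of -0.32 in H5 and -0.55 in the scrambled control.

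Glutathione S-transferases, which couple glutathione to reactive compounds, were a second group. The NRF2 and xenobiotic list of 32 genes had 3 higher members (9.38%, beside 0.697% of all genes), all of this family (*Mgst1*, *Gstm2* and *Gstt1*), and 0 lower. The whole family was then counted by symbol, a choice made after these values were seen, so that the count is a description. Of 22 measured members, 7 were higher in both lines and 0 were lower, beside 0.697% higher and 0.336% lower among all genes. At any size 17 lay above untransduced cells in both lines and 1 below, beside 33.5% and 31.8% of all genes. The median mean difference was 0.28. *Mgst1*, a membrane-bound transferase, was the highest, at 8.23 in H5 and 8.18 in the scrambled control, against 7.21 in untransduced cells (differences 1.02 and 0.97; limma unadjusted p = 0.00411). *Gstm7* measured 8.95 in H5 and 9.14 in the scrambled control, against 8.28 in untransduced cells (differences 0.67 and 0.86; limma unadjusted p = 0.00683). *Gstt3* measured 9.86 in H5 and 9.96 in the scrambled control, against 9.28 in untransduced cells (differences 0.58 and 0.68; limma unadjusted p = 0.0108). *Gstm5*, *Gstm2*, *Gstt1* and *Mgst2* completed the 7, with smaller differences of 0.51 to 0.64. *Gstp1* (11.52 in H5 and 11.83 in the scrambled control, against 11.57 in untransduced cells) and *Gsto1* (9.92 in H5 and 9.90 in the scrambled control, against 10.02 in untransduced cells), of other classes, were within 0.26 of untransduced cells. The Gstm genes are close copies of each other, and signal from one may reach the probes of another. *Slc7a11* and *Gclc*, which supply cystine and make the first step of glutathione synthesis, lay on the other side, with differences of -0.48 in H5 and -0.70 in the scrambled control for *Slc7a11* and -0.33 in H5 and -0.52 in the scrambled control for *Gclc*.

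The knockdown lines were lower in *Mgst1* than the selected control lines, with 7.25 in H3 and 7.53 in H4, close to the untransduced 7.21. For *Gstm7* they measured 8.90 in H3 and 9.07 in H4, near the selected control lines.

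The 15 genes with the largest smaller difference on the higher side came from different functions. The first was *n-R5s136*, a 5S ribosomal RNA gene, at 9.51 in H5 and 9.79 in the scrambled control, against 8.03 in untransduced cells, with differences of 1.48 and 1.76 (limma unadjusted p = 0.00122). It measured 9.77 in H3 and 9.60 in H4, so that untransduced cells were the lowest of the 5 arrays. The genome holds many near-identical 5S copies, and the probe set cannot be assigned to one of them. *Tcp11l2* was next, at 8.07 in H5 and 8.58 in the scrambled control, against 6.78 in untransduced cells (differences 1.29 and 1.80; limma unadjusted p = 0.0312). *Cpq*, a secreted carboxypeptidase, measured 9.12 in H5 and 8.93 in the scrambled control, against 7.82 in untransduced cells (differences 1.30 and 1.11; limma unadjusted p = 0.0297). *Tmem140* had the lowest unadjusted limma p of these 15, 0.000429, at 8.01 in H5 and 8.08 in the scrambled control, against 7.05 in untransduced cells, with H3 and H4 at 8.18 and 8.10. *Sqor*, the mitochondrial enzyme that oxidizes hydrogen sulfide, measured 7.30 in H5 and 7.40 in the scrambled control, against 6.33 in untransduced cells. In each of these 5 genes the selected lines were closer to each other than either was to the untransduced array. *Phyhd1* measured 7.87 in H5 and 8.17 in the scrambled control, against 6.91 in untransduced cells. *Dbp*, a transcription factor of circadian output, measured 8.54 in H5 and 8.71 in the scrambled control, against 7.65 in untransduced cells. *Lcn2* (lipocalin 2), which binds bacterial siderophores, and *Tnip3*, an inhibitor of NF-kB signalling, were also in this set, *Lcn2* with differences of 0.97 in H5 and 1.70 in the scrambled control and *Tnip3* with 0.89 in H5 and 1.14 in the scrambled control. Of 30 NF-kB target genes, 1 (*Lcn2*; 3.33%) was higher in both lines, beside 0.697% of all genes, and 0 were lower. The median of that list was -0.02 in H5 and -0.01 in the scrambled control.

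**Figure D3:**
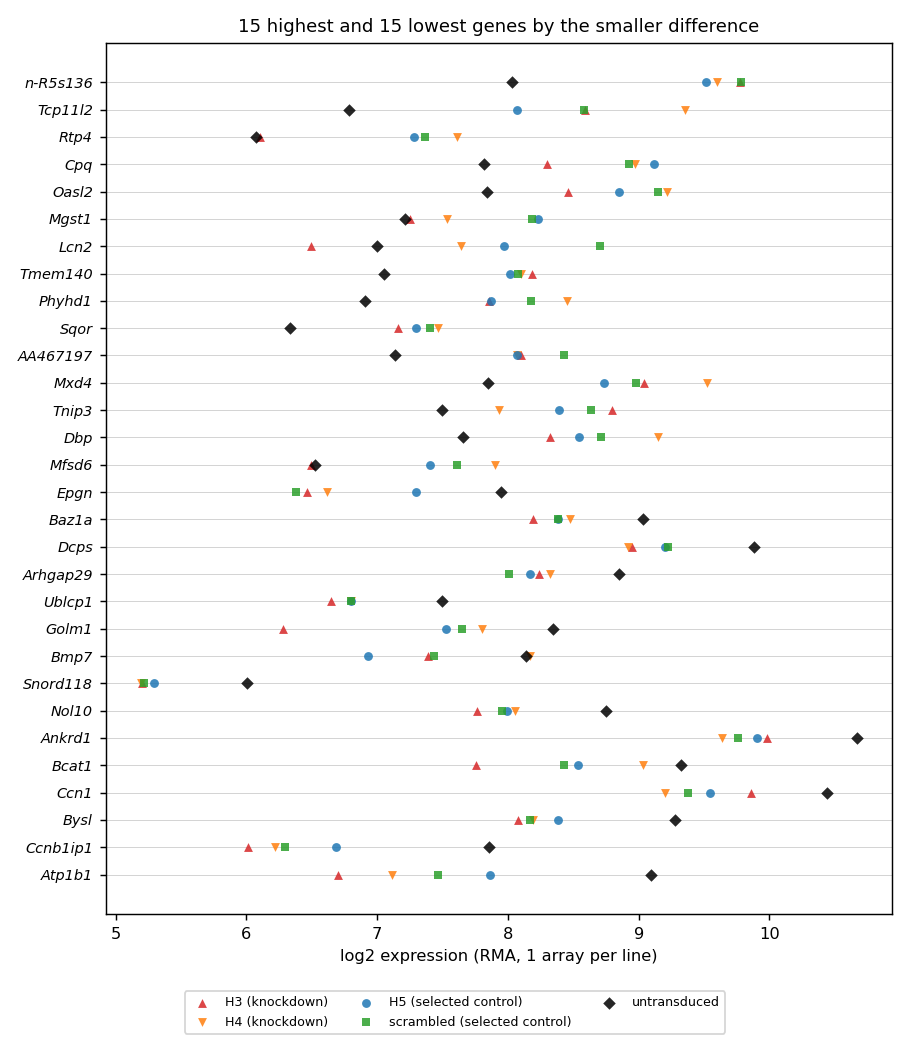
Log2 expression in each of the 5 lines, 1 array per line, of the 15 genes with the largest smaller difference on the higher side (top, n-R5s136 to Mfsd6) and the 15 on the lower side (bottom, Epgn to Atp1b1). The untransduced array (black) lies outside both selected control lines (blue and green) for all 30 genes, while a knockdown line lies at or beyond it for Lcn2, Mfsd6 and Bmp7.

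Members that restrain growth or respond to nutrient supply were found among the higher genes; they were picked out after the values were seen and were not a list. *Mxd4*, which competes with MYC for MAX, measured 8.74 in H5 and 8.98 in the scrambled control, against 7.84 in untransduced cells (differences 0.89 and 1.13; limma unadjusted p = 0.0239). *Pik3ip1*, an inhibitor of PI3 kinase, measured 8.36 in H5 and 8.51 in the scrambled control, against 7.57 in untransduced cells (differences 0.79 and 0.94; limma unadjusted p = 0.0015). *Txnip*, an inhibitor of glucose uptake and thioredoxin, measured 10.22 in H5 and 10.61 in the scrambled control, against 9.53 in untransduced cells (differences 0.70 and 1.08; limma unadjusted p = 0.0143). *Pdcd4*, which binds the translation factor eIF4A, measured 10.51 in H5 and 10.97 in the scrambled control, against 9.91 in untransduced cells, with the scrambled control furthest from untransduced cells. *Rb1*, the retinoblastoma gene, lay just inside the limit (0.50 in H5 and 0.55 in the scrambled control). Each of these 5 genes was also above untransduced cells in H3 and H4, by 1.20 in H3 and 1.68 in H4 for *Mxd4*, 1.25 in H3 and 1.29 in H4 for *Pik3ip1* and 1.26 in H3 and 1.34 in H4 for *Txnip*. The autophagy gene *Map1lc3b* measured 10.29 in H5 and 10.37 in the scrambled control, against 9.78 in untransduced cells. *Calcoco1*, an autophagy receptor, measured 10.20 in H5 and 10.45 in the scrambled control, against 9.42 in untransduced cells. *Pink1*, a mitochondrial kinase, measured 8.68 in H5 and 8.67 in the scrambled control, against 8.09 in untransduced cells. The lysosome list had 3 of 37 genes higher (8.11%, beside 0.697% of all genes) and 0 lower. The higher ones were the protease *Ctsh* (0.67 in H5 and 0.73 in the scrambled control), the galactosidase *Glb1* (0.52 in H5 and 0.65 in the scrambled control) and the iduronidase *Idua* (0.75 in H5 and 0.69 in the scrambled control). At any size 24 of the 37 were above untransduced cells in both lines and 5 below, beside 33.5% and 31.8% of all genes.

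Of 39 p53 target genes, 2 (5.13%) were higher, beside 0.697% of all genes, and 0 were lower. The higher ones were *Trp53inp1* (0.57 in H5 and 0.79 in the scrambled control) and the stress gene *Gadd45a* (0.63 in H5 and 0.59 in the scrambled control). The median of the list was 0.00 in H5 and 0.04 in the scrambled control. Matrix proteases and inhibitors had 2 of 32 higher (6.25%, beside 0.697% of all genes). *Mmp3* (stromelysin) measured 10.79 in H5 and 10.70 in the scrambled control, against 10.08 in untransduced cells (limma unadjusted p = 0.00151). *Reck*, a membrane inhibitor of such proteases, measured 8.63 in both selected lines and 8.04 in untransduced cells. *Mmp3* measured 10.19 in H3 and 10.15 in H4, closer to untransduced cells than to the selected control lines. *Fbln1*, an extracellular matrix glycoprotein, measured 8.11 in H5 and 8.14 in the scrambled control, against 7.57 in untransduced cells, and 7.55 in H3 and 7.46 in H4. *Ggh*, which removes glutamates from folates, measured 6.34 in H5 and 6.21 in the scrambled control, against 5.64 in untransduced cells, and 5.51 in H3 and 5.70 in H4. In these 3 genes both selected control lines lay above the other 3 arrays. Whether the selected control and knockdown lines differed in these genes was not tested.

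Ribosome assembly genes had the largest share of lower members among the 44 lists. Of 39 ribosome biogenesis and nucleolar genes, 4 (10.3%) were lower in both selected lines by 0.5 or more, beside 0.336% of all genes, and 0 were higher. At any size 33 lay below untransduced cells in both lines and 2 above, and the median difference was -0.25 in H5 and -0.33 in the scrambled control. At the unadjusted limma threshold 15 of the 39 were lower and 0 were higher, beside 2.95% and 2.72% of all genes. In H3 and H4 the list had medians of -0.41 and -0.21 against the same array.

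*Bysl* (bystin), required to process the small subunit, measured 8.39 in H5 and 8.17 in the scrambled control, against 9.28 in untransduced cells, which gave the third lowest position of all genes (differences -0.89 and -1.11; limma unadjusted p = 0.00278). *Rrp12*, which takes part in subunit maturation and export, measured 8.11 in H5 and 7.83 in the scrambled control, against 8.65 in untransduced cells (limma unadjusted p = 0.0178). *Rrs1*, which brings the 5S particle into the large subunit, measured 8.05 in H5 and 7.93 in the scrambled control, against 8.59 in untransduced cells (limma unadjusted p = 0.173). *Ltv1*, an assembly factor of the small subunit, measured 8.01 in H5 and 7.99 in the scrambled control, against 8.53 in untransduced cells (limma unadjusted p = 0.00457). In each of the 4 the scrambled control was the lowest of the 3 control arrays. The core enzymes and scaffold proteins of the nucleolus differed by less: fibrillarin (*Fbl*) by -0.30 in H5 and -0.44 in the scrambled control, *Nop56* by -0.26 in H5 and -0.41 in the scrambled control, *Nop58* by -0.38 in both lines and *Ncl* (nucleolin) by -0.21 in H5 and -0.10 in the scrambled control. *Npm1* (nucleophosmin) measured 10.60 in H5 and 10.80 in the scrambled control, against 10.69 in untransduced cells, with the lines on opposite sides, and *Nop10* was above untransduced cells in both, by 0.07 in H5 and 0.31 in the scrambled control. Of RNA polymerase I and its factors, *Rrn3* differed by -0.31 in H5 and -0.36 in the scrambled control, *Polr1b* by -0.21 in H5 and -0.35 in the scrambled control and *Polr1a* by -0.08 in H5 and -0.09 in the scrambled control.

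**Figure D4:**
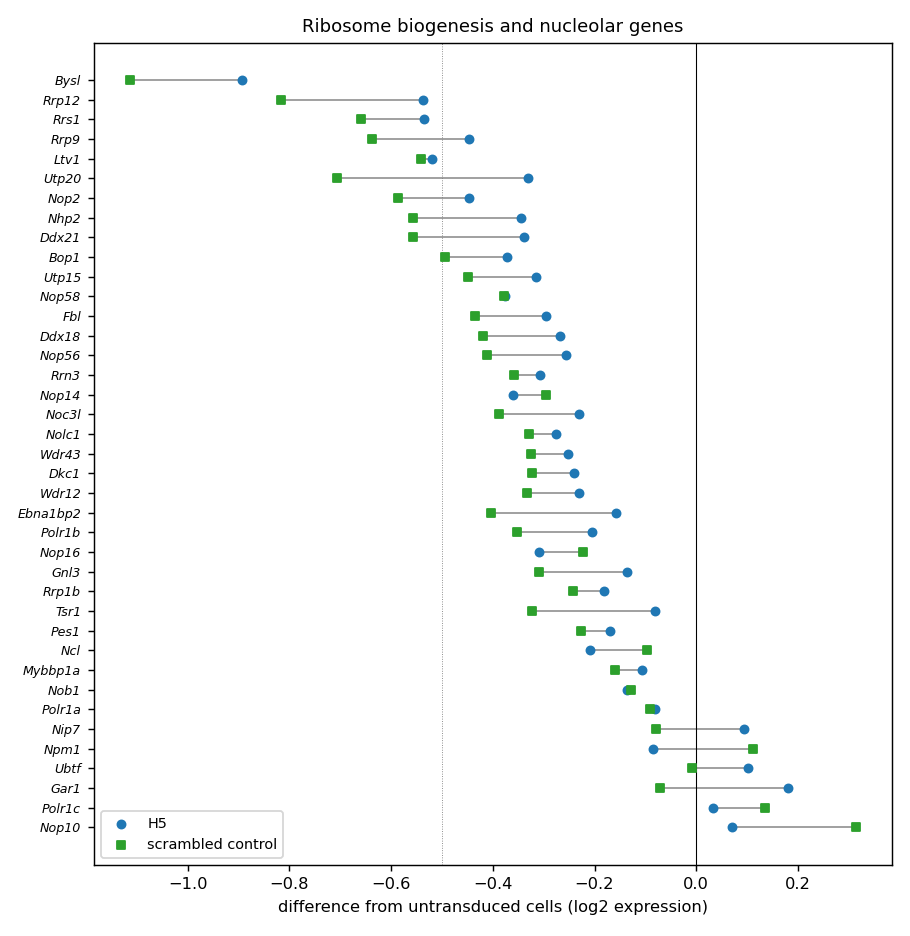
Difference from untransduced cells in log2 expression of the 39 ribosome biogenesis and nucleolar genes in H5 (circles) and the scrambled control (squares), joined by a line per gene. Bysl, Rrp12, Rrs1 and Ltv1 lie beyond -0.5 (dotted line) in both lines, and 33 of the 39 genes lie below 0 in both.

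Further assembly factors outside the list were among the 67 lower members and are named after their values were seen. *Nol10*, *Utp18*, *Tbl3*, *Mphosph10*, *Grwd1*, *Mrto4* and *Ddx31* had smaller differences from -0.50 to -0.76. *Utp18* and *Tbl3* are subunits of the particle that processes the small-subunit RNA, and *Utp18* measured 8.32 in H5 and 8.17 in the scrambled control, against 8.95 in untransduced cells, with differences of -0.63 and -0.78 (limma unadjusted p = 0.0417). *Snord118*, the U8 RNA that guides processing of the large-subunit RNAs, measured 5.29 in H5 and 5.22 in the scrambled control, against 6.00 in untransduced cells (limma unadjusted p = 0.000747), with H3 and H4 both at 5.20, so that untransduced cells were the highest of the 5 arrays.

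The E-box CACGTG, the letters that MYC and MAX prefer and that are the same on both strands, was in 9.5% of all promoters in the window above, in 23.5% of those of the ribosome biogenesis list (8 of 34), in 12.7% of the lower members (7 of 55) and in 11.5% of the higher members (13 of 113). *Mxd4* itself was among the 13. The 7 lower members with the E-box included the assembly factors *Grwd1*, *Ltv1* and *Utp18*. Of the 4 lower genes of the ribosome biogenesis list, 2 had a promoter entry and 1 of these, *Ltv1*, held the E-box. *Utp18*, whose E-box lies 20 bases before the start, is shown as an example, with the 250 bases before the start on the strand of the gene (chr11:93885767-93886016, -, GRCm38.p6, RefSeq) and the E-box in capitals.
Utp18: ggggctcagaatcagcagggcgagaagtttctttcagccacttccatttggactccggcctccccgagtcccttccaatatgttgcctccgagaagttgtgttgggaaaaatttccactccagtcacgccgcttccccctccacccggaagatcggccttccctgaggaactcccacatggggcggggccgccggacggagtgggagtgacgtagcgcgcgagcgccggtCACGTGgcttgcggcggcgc

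Aminoacyl-tRNA synthetases, proteasome subunits and chaperones were below untransduced cells by less, with 0 of their genes past the limit in both lines. Among all genes 0.697% were higher and 0.336% lower by this limit. The synthetases, which charge tRNAs, had 16 of 20 genes below untransduced cells in both lines and 1 above, with medians of -0.17 in H5 and -0.32 in the scrambled control and 4 lower at the unadjusted limma threshold. *Farsa* was the lowest, at 10.12 in H5 and 9.93 in the scrambled control, against 10.52 in untransduced cells. Of 34 proteasome subunits, 28 were below in both lines and 4 above, with medians of -0.15 and -0.27. At the unadjusted limma threshold 11 were lower and 1 was higher, the higher one being *Psmb1* (0.38 in H5 and 0.48 in the scrambled control). Among all genes 2.95% were lower and 2.72% higher at this threshold. Heat shock genes and cytosolic chaperones had 24 of 33 below in both lines and medians of -0.11 and -0.16. Cytosolic ribosomal proteins lay on the other side, with 33 of 56 above untransduced cells in both lines, 7 below, and medians of 0.05 and 0.15. Many ribosomal protein genes have processed copies in the genome that share their probes. Of 42 translation initiation and elongation factors and their regulators, 1 was higher in both lines (2.38%, beside 0.697% of all genes) and 0 were lower. The higher one was *Pdcd4*, an inhibitor of initiation. *Eef2k*, the kinase that slows elongation, measured 8.55 in H5 and 8.55 in the scrambled control, against 8.18 in untransduced cells. *Eif4e*, the cap-binding factor, measured 9.64 in H5 and 9.52 in the scrambled control, against 9.99 in untransduced cells. Each of these 2 genes had both lines on the same side and short of the limit.

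By the smaller difference, the lowest of all genes was *Atp1b1*, the beta subunit of the sodium pump, at 7.86 in H5 and 7.46 in the scrambled control, against 9.09 in untransduced cells (differences -1.23 and -1.63; limma unadjusted p = 0.0102). It measured 6.70 in H3 and 7.12 in H4, below both selected control lines. *Ccnb1ip1*, a ubiquitin ligase known from meiosis, followed at 6.68 in H5 and 6.30 in the scrambled control, against 7.85 in untransduced cells (differences -1.17 and -1.56; limma unadjusted p = 0.00513). *Ccn1* and *Ankrd1*, known targets of the YAP coactivator, were also below in both selected lines. *Ccn1* measured 9.55 in H5 and 9.38 in the scrambled control, against 10.44 in untransduced cells. *Ankrd1* measured 9.91 in H5 and 9.76 in the scrambled control, against 10.67 in untransduced cells. *Bcat1*, the cytosolic aminotransferase of branched-chain amino acids, measured 8.53 in H5 and 8.43 in the scrambled control, against 9.32 in untransduced cells. *Dcps*, the scavenger decapping enzyme, measured 9.20 in H5 and 9.23 in the scrambled control, against 9.88 in untransduced cells (limma unadjusted p = 0.000735). *Tfrc*, the transferrin receptor, measured 10.12 in H5 and 9.73 in the scrambled control, against 10.65 in untransduced cells. It is a member of the reference list, in which 1 of 12 genes (8.33%) was lower in both lines. Among all genes 0.336% were lower, and 0 reference genes were higher. The median of these 12 was -0.09 in H5 and -0.12 in the scrambled control.

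Cell cycle genes were below untransduced cells in the selected control lines, and the distance depended on the line. Of 53 genes of the G1/S transition and DNA replication, 41 were below in both lines and 1 above. By the limit 0 were lower in both lines, beside 0.336% of all genes. The median was -0.12 in H5 and -0.38 in the scrambled control. The latter was the lowest scrambled-control median of the 44 lists, beside -0.33 for ribosome biogenesis genes. The 59 genes of G2 and mitosis had medians of -0.11 and -0.28, with 46 below in both lines and 1 above. Against the same untransduced array the knockdown lines had medians of -0.61 and -1.12 for the first list and of -0.80 and -1.63 for the second, in H3 and H4. *Mki67*, a proliferation marker, measured 10.74 in H5 and 10.55 in the scrambled control, against 10.61 in untransduced cells. *Ccne2* (cyclin E2) measured 8.33 in H5 and 7.95 in the scrambled control, against 8.74 in untransduced cells. The selected lines thus lay on either side of untransduced cells for *Mki67* and below them for *Ccne2*.

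Some members were on the same side in both lines but at very different distances. The gap between H5 and the scrambled control was 0.14 in the median for higher and 0.15 for lower members and reached 0.96 and 0.92, beside a median of 0.06 over all genes, and the scrambled control was the further line in 108 of the 139 (77.7%) and 51 of the 67 (76.1%), beside 52.8% of all genes. *Tcn2*, the carrier of vitamin B12, had the widest gap among higher members, at 8.30 in H5 and 9.27 in the scrambled control, against 7.50 in untransduced cells. *Epgn* (epigen), a ligand of the EGF receptor, had the widest among lower members, at 7.30 in H5 and 6.38 in the scrambled control, against 7.94 in untransduced cells. H5 was the further line for *Peg3*, *Cp* and *Bmp7*. *Peg3*, an imprinted zinc finger gene, measured 7.73 in H5 and 6.97 in the scrambled control, against 6.46 in untransduced cells. *Cp* (ceruloplasmin), the copper-binding ferroxidase, measured 6.05 in H5 and 5.53 in the scrambled control, against 4.98 in untransduced cells. *Bmp7*, a growth factor ligand, measured 6.93 in H5 and 7.44 in the scrambled control, against 8.14 in untransduced cells. In the knockdown lines *Bmp7* measured 7.39 in H3 and 8.17 in H4, so that H4 lay 0.03 above untransduced cells. The cholesterol and fatty acid synthesis list had a median of -0.13 in H5 and 0.19 in the scrambled control. Of its 30 genes 0 passed the limit in both lines, beside 0.697% higher and 0.336% lower among all genes.

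**Figure D5:**
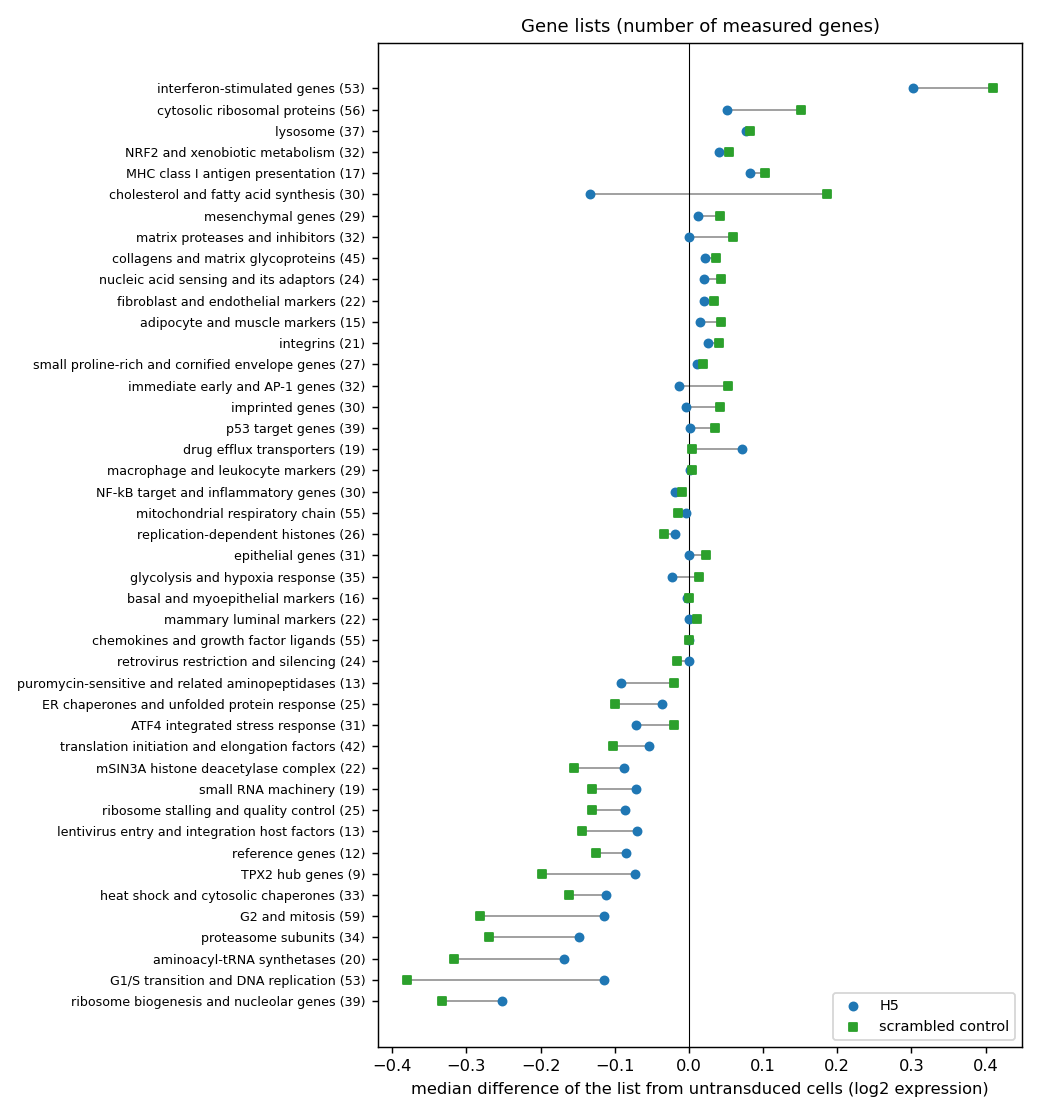
Median difference from untransduced cells in log2 expression of each of 44 gene lists, in H5 (circles) and the scrambled control (squares), with the number of measured genes in brackets. Interferon-stimulated genes lie furthest to the right (0.30 and 0.41) and ribosome biogenesis genes at the bottom (-0.25 and -0.33), while the lists in the middle lie near 0. In the scrambled control the G1/S and DNA replication list has the lowest median (-0.38).

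Marker lists of other cell types stayed near 0, with medians of 0.00 in H5 and 0.00 in the scrambled control for 29 macrophage and leukocyte genes and of 0.02 and 0.03 for 22 fibroblast and endothelial genes. Among 22 subunits of the mSIN3A histone deacetylase complex, to which ARID4B belongs, 0 passed the limit, beside 0.697% higher and 0.336% lower among all genes. At any size 13 lay below untransduced cells in both lines and 5 above, beside 31.8% and 33.5% of all genes. The medians were -0.09 in H5 and -0.16 in the scrambled control. Just inside the limit on the higher side were *Mapk1ip1*, *Rb1* and *Sugct* (smaller difference 0.50 each), and just outside were *Abtb1*, *Itpr2* and *Smim26* (0.50 each after rounding). On the lower side *Zw10*, *Rny1* and *Aqp1* were just inside and *Polr2i*, *Armc8* and *Ythdc2* just outside, all at -0.50 after rounding.

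Of 13767 probe sets without exactly 1 gene symbol, 77 (0.559%) were higher in both selected control lines by 0.5 or more and 261 (1.9%) were lower, so that lower ones outnumbered higher ones, the reverse of the order among named genes. The 261 had a median difference of -0.69 in H5 and -0.80 in the scrambled control, and of -0.85 in H3 and -0.67 in H4 against the same array. Over all 13767 the median was 0.00 in H5 and -0.01 in the scrambled control. Of these probe sets 1621 had several symbols and 12146 had none in the platform annotation. What those without a symbol measure is not known here, and they need not represent genes.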

How the data were processed

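RNA of 5 mouse 6DT1 lines was hybridised to 1 Affymetrix Mouse Gene 1.0 ST array each. The authors deposited log2 expression, normalized by RMA in Partek according to the submitters' processing notes, and no version is known here. RMA gives exact ties between arrays, and H5 and the scrambled control shared a value in 2400 genes. The table held 35556 probe sets, of which 21789 had 1 gene symbol in the platform annotation, 1621 had several and 12146 had none. Gene IDs of 21698 were found in RefSeq for GRCm38.p6. Of the 19938 genes, 999 had several probe sets and were represented by the one of highest mean.

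Differences from the untransduced array were taken per gene. The limma 3.58.1 model (lmFit and eBayes in R 4.3.3) fitted H3 and H4, H5 and the scrambled control, and untransduced cells as 3 groups, with 2 residual degrees of freedom. The spread of the single untransduced array was thus taken from the other groups, and p-values are two-sided with Benjamini-Hochberg adjustment. The model was tested on simulated data. Members, the 44 lists and the limit were chosen with earlier results of these data known. Genes named by rule were Arid4b, the 15 highest and 15 lowest by the smaller difference, and up to 5 members of each list with the largest smaller difference; genes outside this rule were chosen after their values were seen. The number of arrays limits the precision. Alternatives were the samples and grouping in the model, its variance moderation, array scaling, filters on low and tied values, averaged probe sets, the limit, the gap between selected lines and leaving out each line.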

Additional observations from a re-analysis of the deposited data

How the results depend on the processing

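Among 238 named genes, changes of scaling, filter, probe set or moderation, and leaving out each line, turned the sign of 0 mean differences. Grouping all 4 selected lines against untransduced cells turned 3, of which *S100a4*, past the unadjusted threshold, went from 0.30 to -0.13. Leaving out a selected line could not turn a sign, because the named genes had both selected lines on the same side. Leaving out a knockdown line or changing the moderation does not alter the mean difference. For these settings the 0 was thus fixed in advance. The count of genes with both lines higher was 468 at a limit of 0.3 and 5 at a limit of 1, in place of 139, and that of genes lower was 457 and 2, in place of 67. When 1 selected line was left out and the other line alone had to pass the limit, the counts were 163 to 316 higher and 99 to 385 lower, with the larger counts without H5. At the unadjusted limma threshold, the 3 control arrays alone gave 2058 higher and 1205 lower genes on 1 residual degree of freedom, in place of 542 and 588. Leaving out the lowest 1 in 3 genes gave 357 higher, from 13292 genes tested. Leaving out 1 line gave 150 to 2058 higher and 131 to 1205 lower; these were 223 and 404 without H5, 150 and 131 without the scrambled control, and equal to the 3 control arrays alone without H3 or without H4, since a lone knockdown array adds no spread. No setting gave a gene at an adjusted p under 0.05. The median difference of interferon-stimulated genes was 0.46 with the same filter, where 44 of the 53 were kept, in place of 0.35, and was 0.30 to 0.41 with 1 selected line left out. The median of ribosome biogenesis genes was -0.33 to -0.25 in the same settings, in place of -0.29. No paired analysis was possible because the labels give no replicate numbers. With 1 array per line, culture, array and line cannot be told apart.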

Other observations

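Enzymes of mitochondrial and amino acid metabolism that are not on any list above were also among the genes higher in both selected control lines. They were picked out after their values were seen and were not tested as a group. *Adhfe1*, a mitochondrial dehydrogenase, measured 9.13 in H5 and 9.41 in the scrambled control, against 8.26 in untransduced cells. *Aldh6a1*, of valine breakdown, measured 8.01 in both selected lines and 7.26 in untransduced cells. *Pdk2*, a kinase that inhibits pyruvate dehydrogenase, measured 8.52 in H5 and 8.54 in the scrambled control, against 7.73 in untransduced cells. Untransduced cells were the lowest of the 5 arrays for all 3 genes.

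Genes of immune recognition formed another such set. *Mr1*, which presents vitamin metabolites to T cells, measured 9.62 in H5 and 9.85 in the scrambled control, against 8.95 in untransduced cells. *Vsir*, an immune checkpoint protein, measured 9.61 in H5 and 9.94 in the scrambled control, against 8.81 in untransduced cells. The cytokine gene *Il18* measured 7.88 in H5 and 7.96 in the scrambled control, against 7.31 in untransduced cells. In each of these 3 both selected lines lay above the untransduced array. *H60b*, a ligand of the NKG2D receptor, measured 7.79 in H5 and 8.25 in the scrambled control, against 7.28 in untransduced cells, with H3 close to untransduced cells (0.09 in H3 and 1.23 in H4 against them). The same 3 arrays gave the iron exporter *Slc40a1* at 6.39 in H5 and 6.41 in the scrambled control, against 5.79 in untransduced cells, beside 6.43 in H3 and 7.51 in H4.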
